A study of Oryza sativa with 6 samples.

Results

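The OsWD40 naming scheme numbers rice proteins built from WD40 repeats. Whether the name table used here holds all genes of the scheme was not tested. In that table RGB1 and LST8 are the genes that carry such a number. The rule that chose them uses names and no measured value: a probe set counted when the platform annotation gave it exactly 1 gene and a symbol or synonym of that gene began with OsWD40- and a digit, leaving out proteasome and autophagy subunits. This rule found 2 genes and left out 0: RGB1 (LOC4333680) is OsWD40-80, and LST8 (LOC4333729) is OsWD40-81. They are 2 of the 17905 genes that have a probe set annotated to them alone, each had 1 probe set, and both probe sets passed the filter on low values. In the assembly of the name table both genes lie on the same chromosome with 74 annotated genes between them. Their coordinates are left out, since the genome build of the array design is not known here.

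Transcripts of the embryonic axis were read on Affymetrix Rice Genome Arrays, from mature seeds of Oryza sativa cultivar Nipponbare, with no introduced allele named in the labels. All seeds were equilibrated for 3 days at 25 °C and 85% relative humidity, aged at 85% relative humidity for 14 days (15 in another label field, a difference not settled here), and dried for 3 days at 25 °C and 32% relative humidity. The groups differ in the ageing temperature, 40 °C (3 arrays) or 45 °C (3 arrays), which the labels link to loss of vigour and loss of germination, respectively. Both groups were therefore aged, and the 25 °C control that the labels name was not analysed here. Whether the 3 arrays of a temperature are separate seed lots is not stated, and the p-values then reflect only the spread among these samples, which may be technical.

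A WD40 protein folds its repeats into a propeller of beta blades that holds other proteins together, and it usually has no catalytic activity of its own. RGB1 is the beta subunit of the heterotrimeric G protein, a membrane switch that passes signals from the cell surface inward; beta binds a gamma subunit, and this pair joins the alpha subunit, which in rice is RGA1, the product of the dwarf gene D1. LST8 is a propeller subunit of the TOR kinase complex, which couples nutrient and energy supply to growth and protein synthesis and holds back autophagy. Dry seeds hold a pool of stored transcripts made during maturation, and the arrays read this pool after ageing.

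The RGB1 transcript was lower on each 45 °C array than on each 40 °C array, with a mean level 1.36-fold higher at 40 °C, but the difference did not pass the test across all probe sets. LST8 had a mean level 1.34-fold higher at 40 °C, which rested on 1 array and did not pass the test either. Of all tested probe sets 64.4% had a mean lower at 45 °C in the deposited values, and both genes are read against that background. In the same values 17.8% were, like RGB1, lower on each 45 °C array than on each 40 °C array. The RGB1 groups overlapped under each of the 3 scalings of the arrays given below.

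RGB1 had log2 expression values of 8.98, 9.15 and 8.93 in replicates 1 to 3 at 40 °C. At 45 °C the values were 8.73, 8.32 and 8.68. The 45 °C arrays all lay below the 40 °C arrays, with a gap of 0.20 between the nearest of them, and replicate 2 at 45 °C was the lowest. The mean at 40 °C was 9.02 ± 0.11 (SD, n = 3). At 45 °C it was 8.58 ± 0.22 (SD, n = 3). The log2 change was -0.44 ± 0.17 (SE), with a 95% interval of -0.85 to -0.04. In the limma fit the unadjusted p was 0.0365 and the Benjamini-Hochberg adjusted p over 22214 tested probe sets was 0.238. The exact two-sided permutation test over the arrays gave p = 0.1, the smallest that 3 against 3 allows. The suffix of its probe set, _s_at, marks probes that match more than 1 transcript in the array design, and whether they read a transcript of another gene was not tested.

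**Figure D1:**
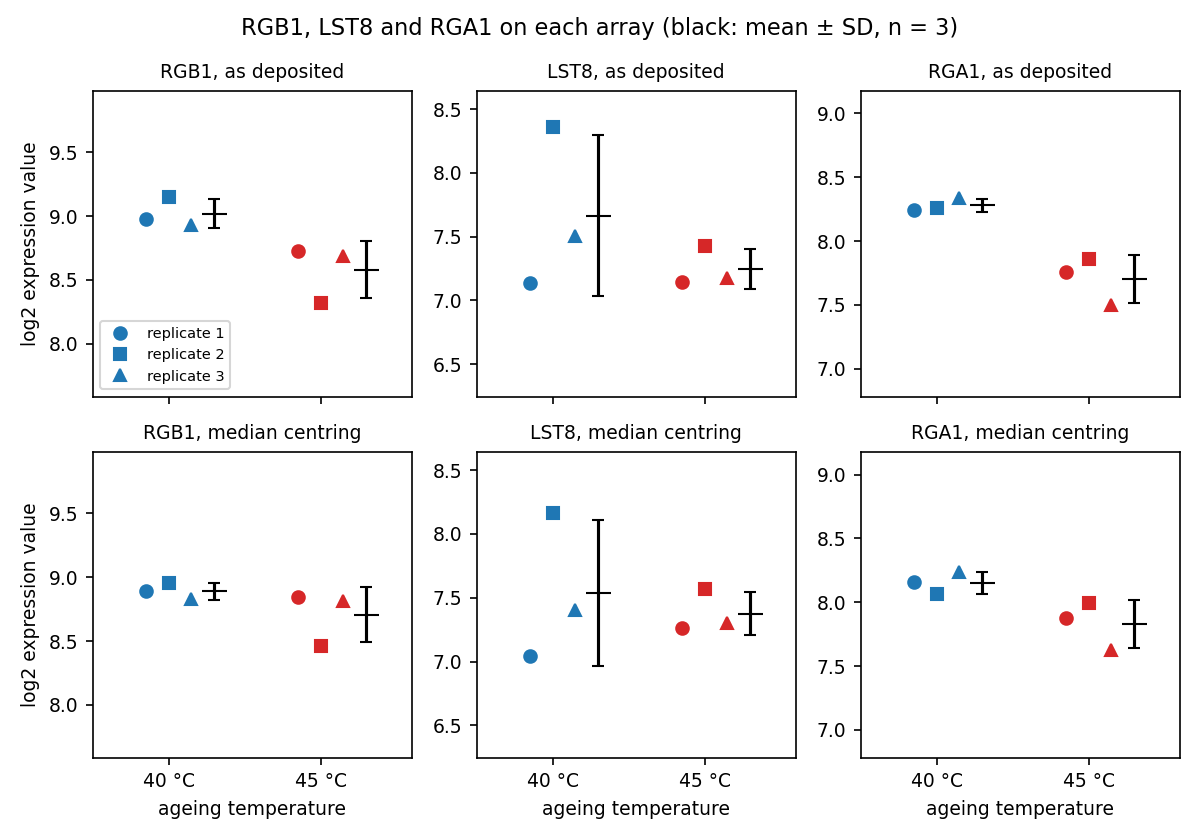
Log2 expression values of RGB1, LST8 and RGA1 on each array, as points shaped by replicate number. Blue is 40 °C and red is 45 °C, with the mean ± SD (n = 3) in black. The upper panels show the deposited values. The lower panels show the values with every array centred on its median over the tested probe sets. For RGB1 the lowest 40 °C array is at 8.93 and the highest 45 °C array at 8.73 as deposited, and at 8.83 and 8.85 after centring, whereas LST8 has 1 high array at 40 °C, at 8.36 as deposited.

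LST8 had log2 expression values of 7.13, 8.36 and 7.51 in replicates 1 to 3 at 40 °C. At 45 °C they were 7.14, 7.43 and 7.17. The groups overlapped: replicate 1 at 40 °C was the lowest of all 6 arrays, and replicate 2 at 40 °C stood above the rest. The mean of 7.66 ± 0.63 (SD, n = 3) at 40 °C was the more variable, beside 7.25 ± 0.16 (SD, n = 3) at 45 °C. The log2 change was -0.42 ± 0.32 (SE), with a 95% interval of -1.17 to 0.34, a limma p of 0.235 and a Benjamini-Hochberg adjusted p of 0.483. The exact two-sided permutation p was 0.4. Without replicate 2 at 40 °C the log2 change was -0.07 (limma adjusted p = 0.884), and without replicate 1 at 40 °C it was -0.68 (limma adjusted p = 0.358).

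Replicate 2 at 40 °C, which held the highest value of both genes, stood apart from the other 40 °C arrays. Over the tested probe sets it correlated with the other 40 °C arrays at 0.927 and 0.935, while those 2 arrays correlated with each other at 0.981 and the 45 °C arrays among themselves at 0.939 to 0.946. Its control transcripts had a mean 3-prime minus 5-prime difference of 2.99 log2 units, a sign of shorter RNA or cDNA, whereas the 5 remaining arrays lay between 1.66 and 2.03. It was also the lowest 40 °C array in the summed endosperm markers, at a log2 of 12.39 against 12.90 and 13.06, though replicate 1 at 45 °C was as low, at 12.37. An exact two-sided permutation test of the 3-prime minus 5-prime difference between the temperatures gave p = 0.5. With the 3-prime minus 5-prime difference as a covariate the LST8 change was -0.07 and that of RGB1 -0.36 (limma adjusted p = 0.892 and 0.328). RGB1 without that array had a log2 change of -0.38, and its groups still did not overlap.

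Of the 2 genes, 0 passed the limma test at an adjusted p of 0.05, as did 0 of all tested probe sets (0%). At an unadjusted p under 0.05 there was 1 of 2, RGB1, beside 13.8% of all tested probe sets that were lower at this p, 5.37% that were higher and 19.2% in either direction. Groups that did not overlap, with 45 °C lower, were found for 1 of 2, again RGB1, and for 17.8% of all tested probe sets (28.7% in either direction). A mean change below 0 was found for both genes and for 64.4% of all tested probe sets. The median log2 change of the pair was -0.43, against -0.17 for all tested probe sets, so RGB1 lay 0.27 and LST8 0.25 log2 units below that median. Of all tested probe sets, 27.7% had a change as low as that of RGB1 or lower, and 29.3% as low as that of LST8 or lower. Among the 2438 probe sets with a mean of 8 to 9, the range of RGB1, the median change was -0.21, and among the 3280 with a mean of 7 to 8, the range of LST8, it was -0.25.

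**Figure D2:**
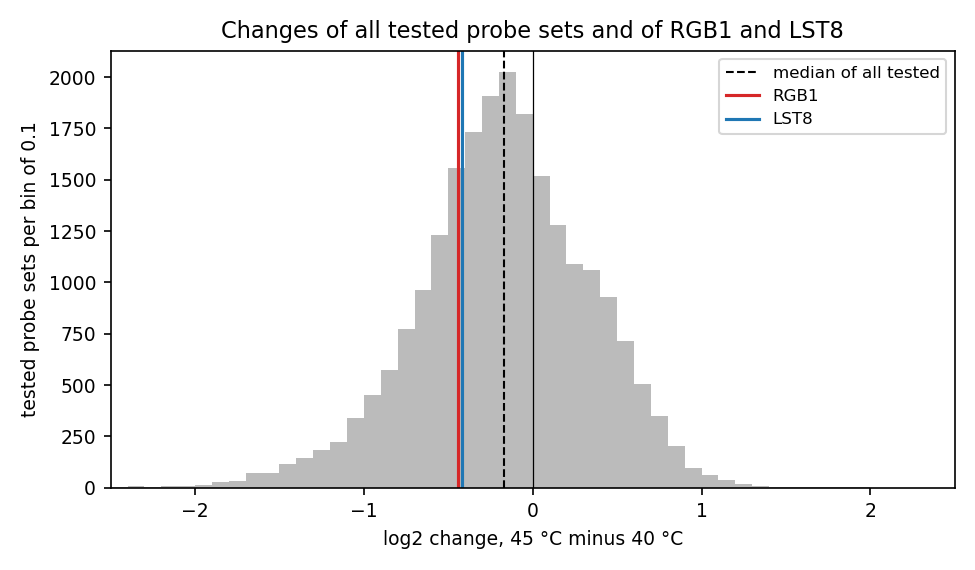
Histogram of the log2 change (45 °C minus 40 °C, horizontal axis) of the 22214 tested probe sets, as the number per bin of width 0.1, with the median of all (dashed) and the changes of RGB1 and LST8 (coloured lines). RGB1 at -0.44 and LST8 at -0.42 lie on the lower flank of the distribution, whose median is -0.17, and not in its tail.

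The differences were smaller once the arrays were scaled to each other. With array medians over the tested probe sets set equal (median centring) the RGB1 change was -0.18. With a second quantile normalization it was -0.23 and with cyclic loess -0.22. The limma adjusted p was 0.587, 0.524 and 0.535. Under each of these the RGB1 groups overlapped: after centring the highest 45 °C array was at 8.85 and the lowest 40 °C array at 8.83. The LST8 change was -0.16, -0.18 and -0.21 under the same scalings. Both genes thus had means lower at 45 °C under these 3 scalings, without passing the test. The deposited arrays had medians over the tested probe sets of 6.45 to 6.55 at 40 °C and 6.23 to 6.25 at 45 °C. The median change of all tested probe sets, -0.17 as deposited, became 0.09 with centring, 0.01 with the quantile step and -0.02 with cyclic loess. RGB1 and LST8 lay below that median under each. Without the filter, over all 57258 probe sets, the median change of the deposited values was 0.08, so the lower 45 °C level holds for the tested probe sets only. In whole axes, fewer cells with a transcript and less of it per cell cannot be told apart.

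**Figure D3:**
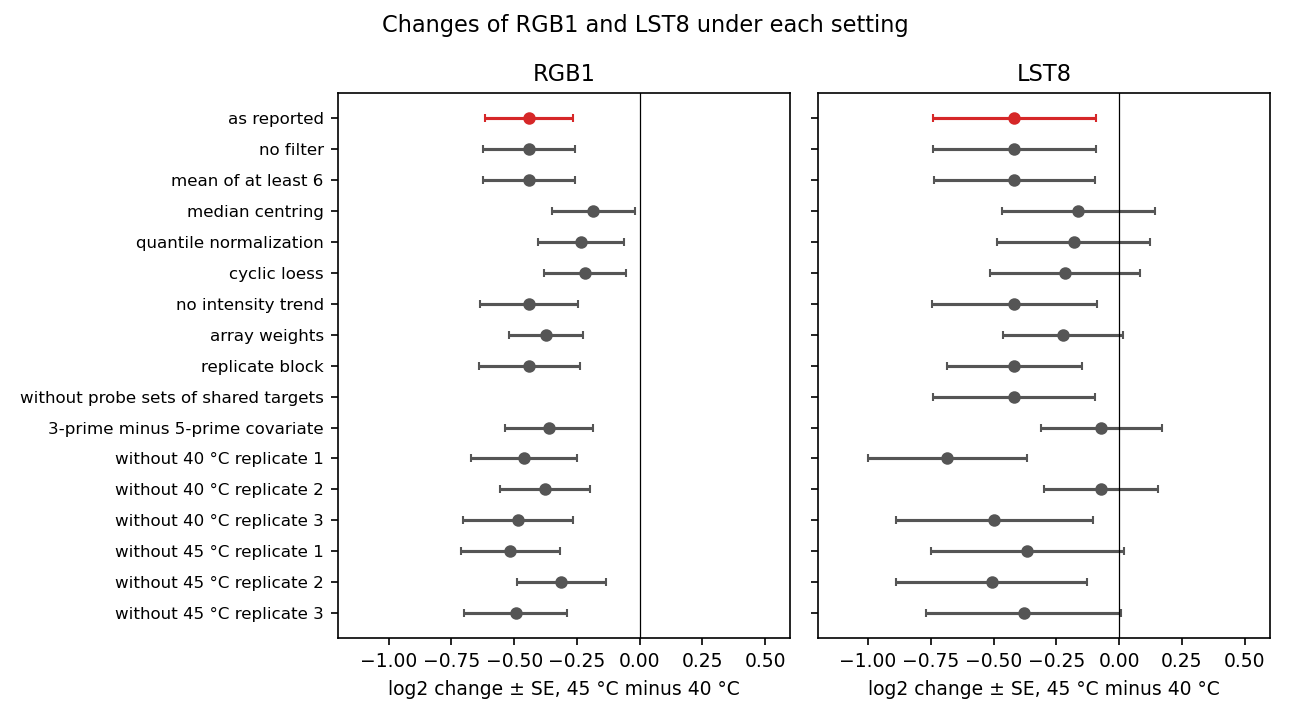
Log2 change (45 °C minus 40 °C) ± SE of RGB1 (left) and LST8 (right) as reported (red) and under each other setting (grey), 1 line per setting. All values are below 0; RGB1 ranges from -0.52 to -0.18, and LST8 moves to -0.07 without replicate 2 at 40 °C.

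A comparison within each array does not depend on how arrays are scaled by a constant. The log2 difference of RGB1 to LST8 changed by -0.02 between the groups (exact permutation p = 1, adjusted p = 1 over the 2 pairs compared), with an SD of 0.53 at 40 °C and 0.38 at 45 °C (n = 3 each). Without replicate 2 at 40 °C this was -0.31. A difference between the changes of the 2 genes was not detectable with this spread.

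Loss of the alpha subunit gene RGA1 (D1) in rice gives dwarf plants with short round grains. RGA1 was also lower on each 45 °C array than on each 40 °C array, as were 17.8% of all tested probe sets. Its log2 expression values were 8.25, 8.26 and 8.34 at 40 °C and 7.75, 7.86 and 7.50 at 45 °C. The 40 °C arrays were close together, and replicate 3 at 45 °C was the lowest. The log2 change was -0.58 ± 0.18 (SE), with a 95% interval of -0.996 to -0.16, a limma p of 0.0135 and a Benjamini-Hochberg adjusted p of 0.195, so it did not pass either. Where the RGB1 groups overlapped after scaling, the RGA1 groups stayed apart after median centring (a change of -0.32), quantile normalization (-0.36) and cyclic loess (-0.36), as did 6.81%, 9.04% and 11.0% of all tested probe sets in the same direction. The log2 difference of RGB1 to RGA1 within arrays was 0.14 higher at 45 °C (exact permutation p = 0.6, adjusted p = 1 over the 2 pairs). A gamma subunit gene, RGG1, had values of 2.38 to 3.69 at 40 °C and 2.40 to 3.15 at 45 °C, under the expression minimum of 4, and was not tested. Of the G protein partner list, 1 of 2 genes was thus tested and 0 passed the adjusted threshold. The planned list also named RGG2, GS3, DEP1 and the XLG genes, for which no value is given here, so the partners are covered only in part.

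Genes that act with the rice G protein were also looked at. OsRac1, a small GTPase that acts with the alpha subunit in defence signalling, had a log2 change of -0.17 (95% interval -0.80 to 0.46). OsMAPK6, a mitogen-activated protein kinase of the same path, had a change of -0.01 (95% interval -0.44 to 0.42). TUD1, a ubiquitin ligase that interacts with D1, was under the minimum on all arrays (1.86 to 3.04). In this list of 3 genes, 2 were tested and 0 passed in either direction, with a smallest limma adjusted p of 0.737; both were above 0 after each of the 3 scalings, and leaving out 1 array turned the sign of both.

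Around LST8, the gene of the TOR kinase itself had no probe set of its own in the annotation. SnRK1A, the energy-sensing kinase that acts against TOR, had changes of -0.14 and -0.38 in its 2 probe sets. In the probe set with -0.38 the groups did not overlap, with a gap of 0.05. For its close relative SNRK1B the 3 probe sets disagreed, with -0.10, -0.75 and 0.06. The probe set with -0.75 had 9.41, 9.59 and 9.63 at 40 °C and 8.84, 8.74 and 8.81 at 45 °C (limma adjusted p = 0.163). The groups of this probe set did not overlap either, as for 17.8% of all tested probe sets with 45 °C lower. Its suffix, _x_at, marks probes that can match other genes, and SnRK1 kinases are near copies of each other, so which gene this probe set reads is uncertain. TCTP, a small protein linked to TOR activity in animals and plants, had changes of -0.11 and -0.06 in its 2 tested probe sets, and 1 more was under the minimum. Of the 7 tested probe sets in this list, 6 were below 0 as deposited (2 with centring, 4 with the quantile step and 2 with cyclic loess), and 0 passed the adjusted threshold. Of all tested probe sets 64.4% were below 0 as deposited. With array weights, 1 passed, the SNRK1B probe set with -0.75 (a change of -0.78, limma adjusted p = 0.0455), as did 0.869% of all tested probe sets. The list median was -0.11 as deposited, 0.15 with centring, -0.01 with the quantile step and 0.08 with cyclic loess. The median of all tested probe sets was -0.17, 0.09, 0.01 and -0.02 in the same order, so as deposited the list median lay above it. Leaving out 1 array turned the sign of 3 of the 7, in SnRK1A and SNRK1B.

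**Figure D4:**
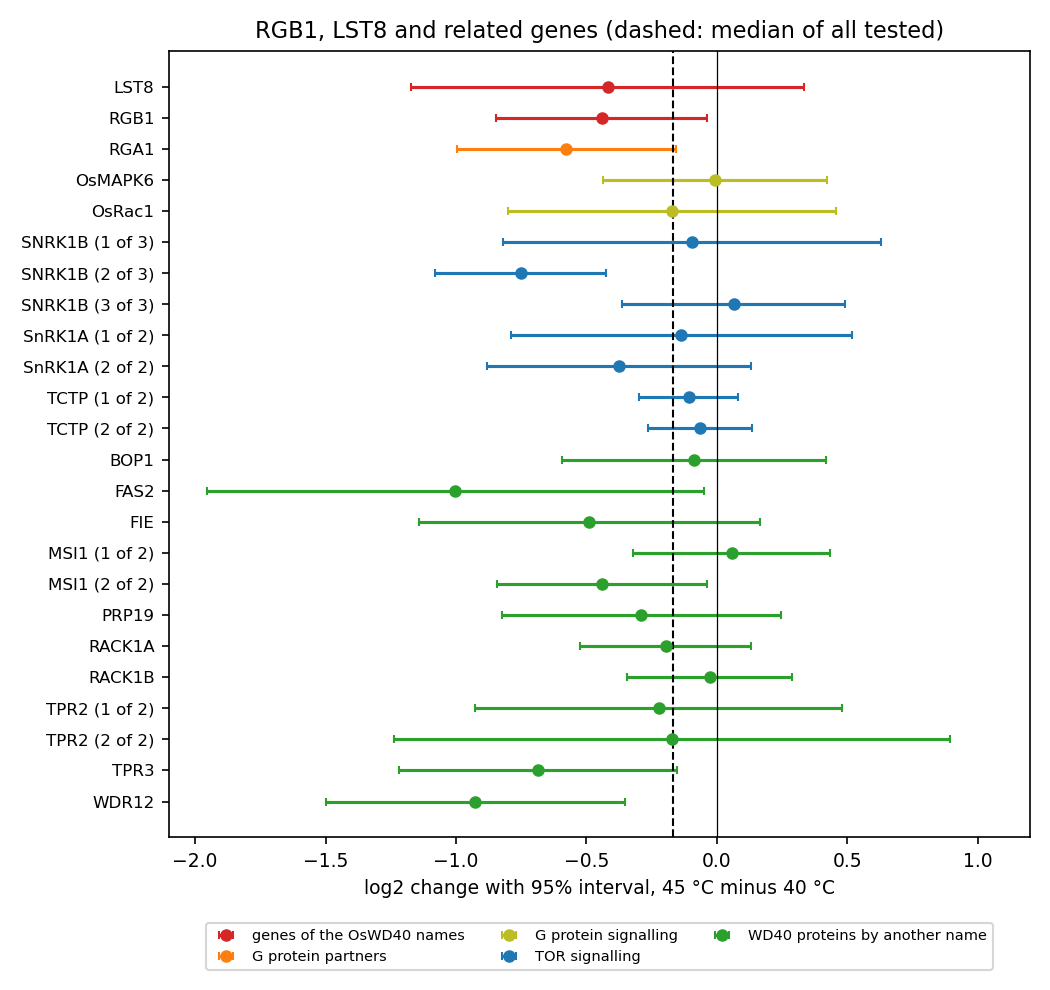
Log2 change (45 °C minus 40 °C) with its 95% interval for the tested probe sets of RGB1 and LST8 (red), of the G protein and TOR genes and of 10 further WD40 proteins, 1 line per probe set, numbered where a gene has more than 1. The dashed line is the median of all tested probe sets, at -0.17; most intervals span it, and those of WDR12 and of 1 SNRK1B probe set do not.

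Some WD40 proteins are listed under other names, and 10 found by a list of synonyms are set beside RGB1 and LST8. RACK1A and RACK1B, the scaffold proteins most like a G protein beta subunit, had changes of -0.20 (95% interval -0.52 to 0.13) and -0.03 (95% interval -0.34 to 0.29). WDR12, a factor of large ribosomal subunit assembly, had the smallest p, with 6.84, 6.76 and 6.61 at 40 °C and 6.10, 5.64 and 5.69 at 45 °C, a change of -0.93 ± 0.25 (SE) and a limma adjusted p of 0.177. Its assembly partner BOP1 had a change of -0.09. The TOPLESS-related co-repressor TPR3 had a change of -0.69 (limma adjusted p = 0.206), and TPR2 of -0.22 and -0.17 in its 2 probe sets. The Polycomb subunit FIE had a change of -0.49 (-0.25 without replicate 2 at 40 °C) and the splicing factor PRP19 of -0.29 (-0.54 without replicate 2 and -0.11 without replicate 3 at 40 °C). The chromatin assembly subunit FAS2 had a change of -1.002 (limma adjusted p = 0.248), and -0.61 without replicate 3 at 45 °C. It lay near the expression minimum of 4, with a mean of 4.52 over all arrays and 3.24 in replicate 3 at 45 °C. Replicate 1 was at 4.50 in both groups. MSI1, a histone-binding subunit shared by both chromatin complexes, had 0.06 and -0.44 in its 2 probe sets, which thus disagreed in sign. Of these 12 tested probe sets 11 were below 0 as deposited, 6 after median centring, and 8 after quantile normalization or cyclic loess. As deposited 4 had an unadjusted limma p under 0.05, all of them lower, and 0 passed the adjusted threshold, beside 64.4% of all tested probe sets below 0 and 13.8% lower at an unadjusted p under 0.05. Leaving out 1 array turned the sign of 4 of the 12, in RACK1B, MSI1, TPR2 and BOP1. Their median change was -0.26 as deposited, -0.0005 with centring, -0.04 with the quantile step and -0.09 with cyclic loess. The median of all tested probe sets was -0.17, 0.09, 0.01 and -0.02 in the same order. The share of all tested probe sets below 0 is given for the deposited values only, so the scaled counts have no such share beside them. RGB1 and LST8 lay inside the deposited range of -1.002 to 0.06.

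The labelled tissue was checked by marker genes. All 8 embryo markers on the array reached the minimum, among them the embryo protein gene Emp1 (mean 13.66 at 40 °C and 13.58 at 45 °C) and OsVP1, a regulator of seed maturation (9.05 and 8.89). Endosperm markers were also present, with 10 of 11 above the minimum and GluB4 near the floor (1.28 and 1.24). The log2 of their summed signal was 12.39 to 13.06 at 40 °C and 12.37 to 13.35 at 45 °C, and 15.67 to 15.76 and 15.61 to 15.67 for the embryo markers. Of 3 green tissue markers 1 reached the minimum. The part of these tissues in the RGB1 and LST8 values was not tested.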

How the data were processed

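The authors deposited log2 values from GCRMA, a method that corrects background, quantile-normalizes arrays and summarises probes, per the submitters' processing notes; no version is named there. Per the labels' protocols, 50 ng of total RNA was amplified and labelled with biotin. The 45 °C arrays were compared with the 40 °C arrays by limma 3.58.1 (R 4.3.3; lmFit and eBayes, trend = TRUE, with no covariate), two-sided, in the probe sets whose mean reached 4, with Benjamini-Hochberg adjustment over all of them at 0.05. The step was also run on simulated data, where it missed most changes of 1 log2 unit. Arrays carry no detection calls here, and their number limits the precision.

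RGB1, LST8 and the gene lists were chosen with earlier results of these data known. The rule for named genes took all genes of the OsWD40 names. The G protein signalling and TOR lists were added once the name table was known. A gene matched only by ASP1, a synonym shared with a protease, was left out, and partner lists of other WD40 families were not used. Names come from the platform annotation and assembly ASM3414082v1. At most 0.875% of values were identical between 2 arrays. The covariate of RNA quality was chosen after seeing the data.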

Additional observations from a re-analysis of the deposited data

How the results depend on the processing

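RGB1 kept a change below 0 in all 15 alternatives run and LST8 in all 16, and neither passed the adjusted threshold in any of them. Some of these settings cannot move the log2 change and so do not test its sign. The other filters, eBayes without a trend and the replicate block left it at -0.44 for RGB1 and -0.42 for LST8. Leaving out probe sets of shared targets likewise left LST8 unchanged. Leaving out 1 array gave RGB1 changes of -0.52 to -0.31 (limma adjusted p 0.284 to 0.422) and LST8 changes of -0.68 to -0.07 (limma adjusted p 0.358 to 0.884). The median of both was -0.57 to -0.22 when leaving out 1 array. The count of the 2 genes at an unadjusted p under 0.05 was 1 as reported and 0 under each of the 3 scalings (median centring, quantile, cyclic loess), with the replicate block, with eBayes run without a trend, with the covariate, and without probe sets of shared targets, which leaves RGB1 out; leaving out 1 array gave 0 to 1. Among all probe sets 193 passed with array weights, 44 with the covariate and 0 to 69 when leaving out 1 array (69 without replicate 2 at 40 °C), and 0 in the other settings. With array weights RGB1 had a change of -0.37 (limma adjusted p = 0.168), and with the covariate LST8 had -0.07 (limma adjusted p = 0.892). With the replicate block the limma adjusted p was 0.342 for RGB1 and 0.447 for LST8. Deviations from the group mean correlated at 0.03, -0.14 and -0.04 between same-numbered arrays. Between differently numbered arrays they correlated at -0.16 to 0.13. With 3 arrays per group these values cannot tell whether a number marks a shared seed lot or batch. Beyond the filter, which changes the number of probe sets tested, the cause of the shifts between settings was not tested.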
